A study of Mus musculus with 8 samples.

Results

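Brown adipose tissue is a heat-producing fat depot that also secretes hormones and growth factors, and 10 genes of such factors were followed here in brown fat of mice labelled Abhd15 KO and of wild-type (WT) mice. They were taken from a list of named adipokines and brown fat secreted factors: Adipoq, Lep, Retn, Cfd, Nrg4, Fgf21, Bmp8b, Rbp4, Vegfa and Igf1. Each was read by its brightest probe set that carries that 1 gene symbol, and 9 of the 10 had one, out of 22180 genes with such a probe set. No probe set with the symbol Cfd, the gene of adipsin (complement factor D), was found, so Cfd was not analysed here. Of the 9, 8 were bright enough to test, among 14327 genes tested in all. A gene counted as bright enough where at least 3 arrays exceeded a dim limit of 2.67 log2, taken from probe sets for odorant and pheromone receptors, which brown fat is not thought to use. Bmp8b was below this limit on all 8 arrays.

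The study compared male C57BL/6J mice with a deleted Abhd15 gene (5 arrays, replicates 1 to 5) and WT mice (3 arrays, replicates 1 to 3). All were on normal chow, and the design text gives an age of 14 weeks, a fast overnight and 1 h of refeeding before the tissue was frozen. Each Affymetrix Mouse Gene 2.0 ST array was hybridised with 200 ng of total RNA from a single sample, and values are log2 intensities per probe set after background correction and quantile normalization (RMA). The part of Abhd15 that was deleted and the way it was deleted are not given in the sources used here, and nothing in the labels ties a mouse to a litter, cage or day. ABHD15 belongs to the alpha/beta hydrolase family, is abundant in adipocytes and is known as a partner of PDE3B, the phosphodiesterase through which insulin curbs lipolysis.

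Abhd15 itself read 5.68 to 6.35 log2 in Abhd15 KO-labelled arrays and 5.87 to 6.23 in WT (exact two-sided permutation p = 0.518), so its probe set does not separate the labels. A probe set outside the deleted part would check nothing, and every direction below rests on the labels. Of 12 brown adipocyte markers 11 were measured and all 11 were above the dim limit, with Ucp1, the uncoupling protein, at 12.73 ± 0.15 in Abhd15 KO-labelled arrays (SD, n = 5) and 12.66 ± 0.13 in WT (SD, n = 3). The mean of the 11 markers per array was 8.39 to 9.01 in Abhd15 KO-labelled arrays and 8.62 to 8.795 in WT. Of these markers 7 read higher and 4 lower in Abhd15 KO-labelled arrays. Correlations between arrays lay between 0.964 and 0.975. Abhd15 KO replicate 1 and WT replicate 2 stood apart from the other 6 arrays in Angptl8, a feeding-induced secreted regulator of lipoprotein lipase, with 7.90 and 7.95 against 10.415 to 10.81. The differences of the tested members are given with and without these 2 arrays. The correlations and the lists of other genes are given with all 8 arrays only.

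The 10 factors act at different distances. Adiponectin (Adipoq), leptin (Lep), resistin (Retn) and adipsin (Cfd) are hormones or enzymes that adipocytes release into blood, and leptin and resistin are mostly products of white fat in the mouse. Neuregulin 4 (Nrg4), fibroblast growth factor 21 (Fgf21) and bone morphogenetic protein 8b (Bmp8b) are described as signals of active brown fat. Retinol-binding protein 4 (Rbp4) carries vitamin A in plasma. Vascular endothelial growth factor A (Vegfa) acts largely on neighbouring cells, and insulin-like growth factor 1 (Igf1) acts both through blood and on neighbouring cells.

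The stretches upstream of 4 of these genes are shown first, Igf1 and Retn because their unadjusted p was lowest among the members, and Lep and Fgf21 because they varied most between arrays. Each window runs from 250 bases before to 50 bases after the gene's RefSeq start on build GRCm38.p6, written 5′ to 3′ on the gene's own strand. Capitals mark matches, on either strand, to the letters TTGCNNAA for a C/EBP site and to TTGCATCA for the amino acid response element that ATF4 and CHOP bind. They also mark the TATA box, searched with the letters TATAAA, the site of the factor NF-Y, searched with the letters CCAAT, and the E-box, searched with the letters CACGTG.
Igf1, chr10:87860861-87861160, plus strand: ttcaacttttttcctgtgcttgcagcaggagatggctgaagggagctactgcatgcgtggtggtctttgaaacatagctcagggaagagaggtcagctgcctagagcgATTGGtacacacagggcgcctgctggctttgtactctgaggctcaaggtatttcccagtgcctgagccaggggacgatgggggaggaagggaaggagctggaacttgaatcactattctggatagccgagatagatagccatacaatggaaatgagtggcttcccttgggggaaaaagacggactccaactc
Retn, chr8:3655520-3655819, plus strand: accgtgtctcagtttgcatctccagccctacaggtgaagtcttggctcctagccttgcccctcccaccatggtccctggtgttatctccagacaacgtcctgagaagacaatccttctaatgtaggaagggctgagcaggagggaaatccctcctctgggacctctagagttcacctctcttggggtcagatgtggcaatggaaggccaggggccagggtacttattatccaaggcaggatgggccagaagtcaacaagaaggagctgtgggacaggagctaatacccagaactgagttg
Lep, chr6:29059971-29060270, plus strand: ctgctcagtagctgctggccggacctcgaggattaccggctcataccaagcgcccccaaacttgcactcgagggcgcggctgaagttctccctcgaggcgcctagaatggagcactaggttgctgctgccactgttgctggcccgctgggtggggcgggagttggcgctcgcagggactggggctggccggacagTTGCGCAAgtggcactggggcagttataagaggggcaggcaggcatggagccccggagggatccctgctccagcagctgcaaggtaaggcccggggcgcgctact
Fgf21, chr7:45615441-45615740, minus strand: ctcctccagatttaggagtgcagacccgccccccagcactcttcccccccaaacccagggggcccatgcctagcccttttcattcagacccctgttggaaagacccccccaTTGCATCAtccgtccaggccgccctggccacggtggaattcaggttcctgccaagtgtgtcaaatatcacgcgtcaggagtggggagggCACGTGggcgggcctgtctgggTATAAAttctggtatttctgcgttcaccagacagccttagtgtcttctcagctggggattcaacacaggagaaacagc

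The Lep window held 1 C/EBP match, starting 55 bases before the gene's start, and no other match. The Fgf21 window held an amino acid response element 139 bases, an E-box 50 bases and a TATA box 28 bases before the start. The Igf1 window held a NF-Y site 142 bases before the start, and the letters searched were not in the Retn window. Of 32851 RefSeq windows of the same length, 10.8% held the C/EBP letters, 0.895% the amino acid response element, 13.6% the TATA box, 37.4% the NF-Y site and 7.15% the E-box. The C/EBP and response element letters begin alike but differ further on, so the same stretch cannot match both. A match describes the sequence and does not show that a factor binds there.

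No member passed the test across all genes. The groups were compared with limma on the log2 values, with Benjamini-Hochberg adjustment over all 14327 genes, and the adjusted p was 0.9996 for each of the 8 tested members. Over all genes 0 passed an adjusted p of 0.05, which is 0% of those tested. At an unadjusted p under 0.05 there were 2 of the 8 members, Igf1 and Retn, both with Abhd15 KO-labelled arrays below WT, beside 4.22% of all genes tested (604 genes), or 1.91% counted on the lower side alone and 2.3% on the higher side, and none of the members was on that side. The members and the earlier results of these data were known when the list was drawn up, so this count is a description. The median difference of the 8 members was −0.07 log2, and that of all genes tested was 0.005 log2. In the plot of all differences, the intervals of Igf1 and Retn lie below 0 and those of the other 6 tested members span it.

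**Figure D1:**
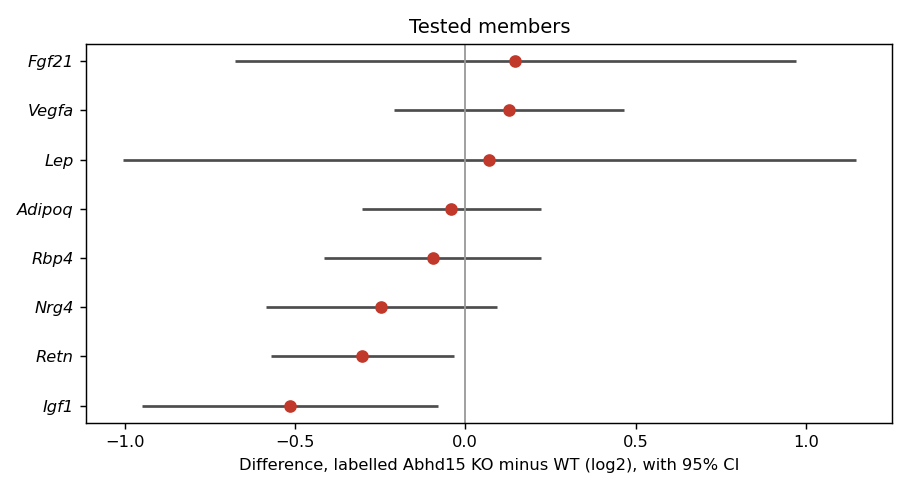
Difference between Abhd15 KO-labelled arrays and WT for the 8 tested members (x axis, log2; points, the limma estimate; bars, its 95% confidence interval, not adjusted for the number of genes). Igf1 at −0.515 and Retn at −0.30 have intervals below 0, and Lep has the widest interval, from −1.005 to 1.15.

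Retn (probe set 17498722), the gene of resistin, which impairs insulin action in mice, read 10.171, 10.005, 9.881, 9.963 and 9.769 in Abhd15 KO-labelled arrays, against 10.176, 10.296 and 10.308 in WT. All 5 Abhd15 KO-labelled arrays were below all 3 WT arrays, but the nearest pair, replicate 1 of each label, differed by 0.005 log2. The groups did not overlap in 2.95% of all genes tested, 1.29% with Abhd15 KO-labelled arrays lower and 1.65% with them higher. The mean was 9.96 ± 0.15 in Abhd15 KO-labelled arrays (SD, n = 5) and 10.26 ± 0.07 in WT (SD, n = 3), a difference of −0.30 (95% confidence interval −0.57 to −0.03), or 0.811-fold with an interval of 0.673 to 0.977. The exact two-sided permutation p was 0.0357, where 0.0179 is the lowest that 56 splits of 8 arrays allow, and it ranked 370 of 14327 genes by unadjusted p. Without both arrays lowest in Angptl8 the difference was −0.34 (−0.65 to −0.02). With single arrays left out its interval crossed 0 without Abhd15 KO replicate 3 (upper bound 0.015), Abhd15 KO replicate 5 (0.021), WT replicate 2 (0.04) and WT replicate 3 (0.053).

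Adipoq (probe set 17324404), whose product adiponectin raises insulin sensitivity, read 8.93, 8.73, 8.997, 8.73 and 8.695 in Abhd15 KO-labelled arrays, against 8.85, 8.775 and 8.95 in WT. The WT range lay within that of the Abhd15 KO-labelled arrays, and no array stood apart. The difference was −0.04 (−0.30 to 0.22), an interval from 0.81-fold to 1.17-fold, and it was 0.003 without WT replicate 3 and −0.11 (−0.44 to 0.22) without both arrays lowest in Angptl8. The SD of Adipoq over the 8 arrays, 0.115 log2, was larger than that of 10% of all genes tested.

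Lep (probe set 17456545), the satiety hormone gene, had the widest spread of the measured members within both labels. It read 4.67, 4.49, 2.82, 2.87 and 3.975 in Abhd15 KO-labelled arrays, against 3.00, 3.85 and 4.24 in WT. Each label held arrays close to the dim limit of 2.67 and arrays well above it. The SD over the 8 arrays was 0.747 log2, above that of 98.9% of all genes tested. The difference was 0.07 (−1.005 to 1.15), an interval from 0.498-fold to 2.21-fold. Leaving out WT replicate 1 gave −0.28, leaving out Abhd15 KO replicate 1 gave −0.16 and leaving out Abhd15 KO replicate 2 gave −0.11. With both arrays lowest in Angptl8 left out it was −0.08.

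**Figure D2:**
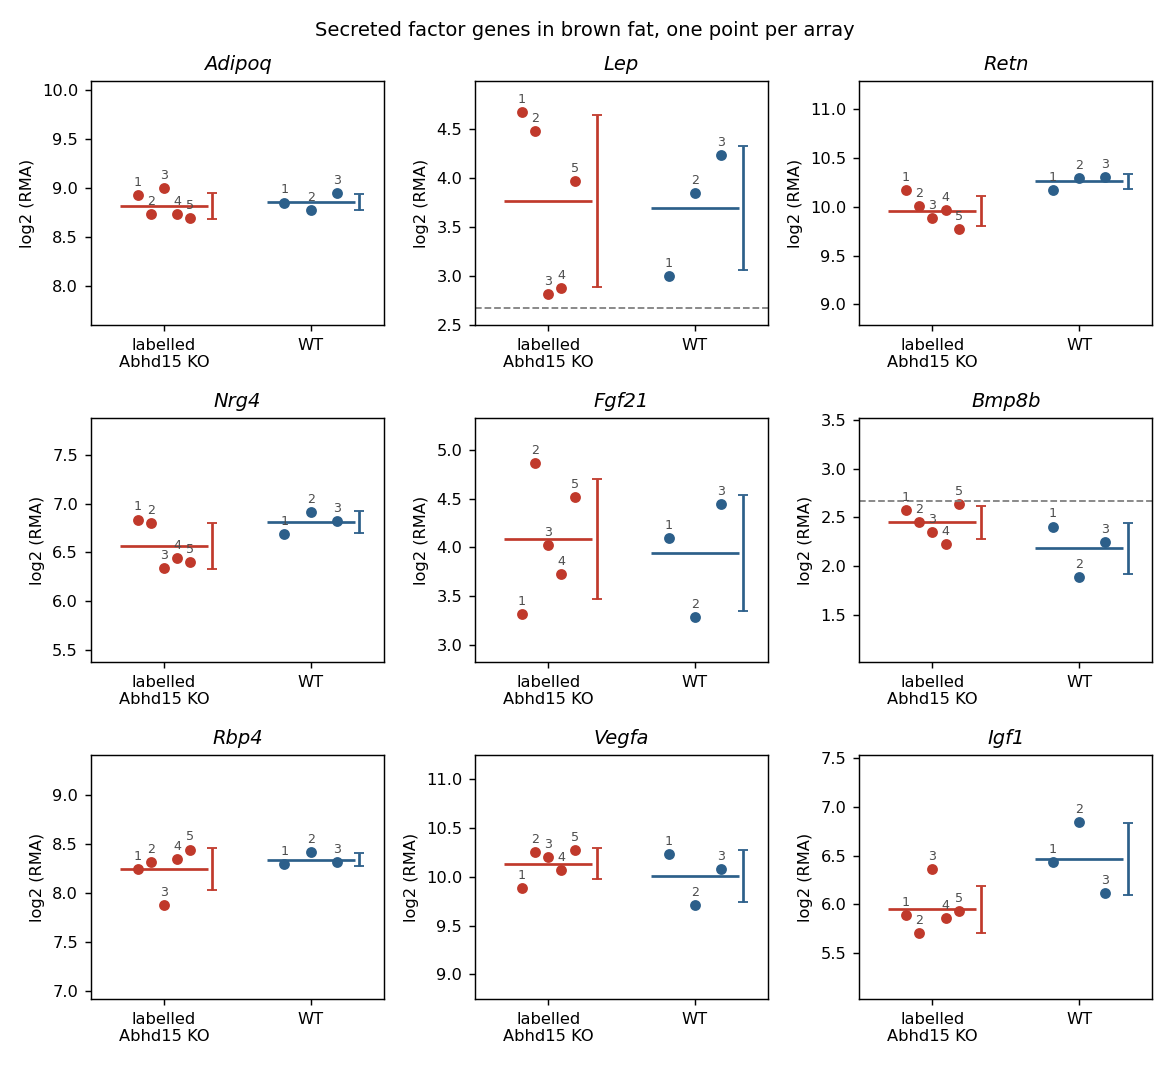
The 9 measured members in each array (y axis, log2 RMA value; every panel spans 2.5 log2; numbers beside points, replicates; horizontal lines, means; bars, SD; dashed line, dim limit of 2.67). Retn separates the labels narrowly, Lep and Fgf21 spread widely within both labels, and Bmp8b lies below the dim limit on all 8 arrays.

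Nrg4 (probe set 17527332), an epidermal growth factor relative that brown fat releases and that binds ErbB3 and ErbB4 receptors, read 6.84, 6.80, 6.34, 6.44 and 6.399 in Abhd15 KO-labelled arrays, against 6.69, 6.91 and 6.82 in WT. Replicates 3, 4 and 5 labelled Abhd15 KO were below every WT array, and replicates 1 and 2 lay within the WT range. The mean was 6.56 ± 0.24 in Abhd15 KO-labelled arrays (SD, n = 5) and 6.81 ± 0.11 in WT (SD, n = 3), a difference of −0.25 (−0.585 to 0.09) with an exact two-sided permutation p of 0.161. With both arrays lowest in Angptl8 left out it was −0.26 (−0.65 to 0.13).

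Fgf21 (probe set 17490899), a hormone best known from the fasted liver and also released by stimulated brown fat, read 3.31, 4.86, 4.02, 3.73 and 4.51 in Abhd15 KO-labelled arrays, against 4.09, 3.285 and 4.45 in WT. All 8 values were above the dim limit. The groups overlapped, with replicates 2 and 5 labelled Abhd15 KO above every WT array. The difference was 0.15 (−0.68 to 0.97), an interval from 0.625-fold to 1.96-fold. Leaving out WT replicate 2 gave −0.18, and leaving out Abhd15 KO replicate 2 gave −0.05. With both arrays lowest in Angptl8 left out it was 0.012 (−0.721 to 0.745). The SD over the 8 arrays was 0.568 log2, above that of 96.6% of all genes tested.

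Bmp8b (probe set 17418141), a transforming growth factor beta relative that raises the response of brown fat to noradrenaline, read 2.58, 2.45, 2.35, 2.22 and 2.64 in Abhd15 KO-labelled arrays, against 2.41, 1.89 and 2.25 in WT. None of these values was above the dim limit, so no fold is given and the gene did not enter the test.

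Rbp4 (probe set 17364341), the plasma carrier of retinol, read 8.25, 8.32, 7.875, 8.34 and 8.445 in Abhd15 KO-labelled arrays, against 8.29, 8.42 and 8.31 in WT. Only Abhd15 KO replicate 3 lay well outside the WT range, on the low side. The difference was −0.10 (−0.41 to 0.22), −0.003 without that replicate, and −0.06 (−0.485 to 0.37) without both arrays lowest in Angptl8.

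Vegfa (probe set 17345293), the main growth factor of blood vessels in brown fat, read 9.88, 10.25, 10.20, 10.07 and 10.27 in Abhd15 KO-labelled arrays, against 10.23, 9.715 and 10.075 in WT. The groups overlapped, and the lowest array of each label was one of the pair lowest in Angptl8. The difference was 0.13 (−0.21 to 0.465), and −0.02 (−0.35 to 0.32) without WT replicate 2. Without both arrays lowest in Angptl8 it was 0.045 (−0.26 to 0.35).

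Igf1 (probe set 17236288), a growth factor made mostly in liver and also by macrophages and connective tissue cells, read 5.89, 5.71, 6.36, 5.86 and 5.93 in Abhd15 KO-labelled arrays, against 6.43, 6.84 and 6.11 in WT. Replicates 1, 2, 4 and 5 labelled Abhd15 KO were below every WT array, and replicate 3 lay inside the WT range. The mean was 5.95 ± 0.24 in Abhd15 KO-labelled arrays (SD, n = 5) and 6.46 ± 0.37 in WT (SD, n = 3), a difference of −0.515 (−0.95 to −0.08), or 0.70-fold with an interval of 0.518 to 0.945. The exact two-sided permutation p was 0.0536, and it ranked 311 of 14327 genes by unadjusted p. Without WT replicate 2, the highest array, the difference was −0.325 (−0.76 to 0.11), and without both arrays lowest in Angptl8 it was −0.31 (−0.79 to 0.17). The interval also crossed 0 without Abhd15 KO replicate 2 (upper bound 0.007) and without WT replicate 1 (0.004). The largest difference with an array left out, −0.69 (−1.14 to −0.24), came without WT replicate 3.

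**Figure D3:**
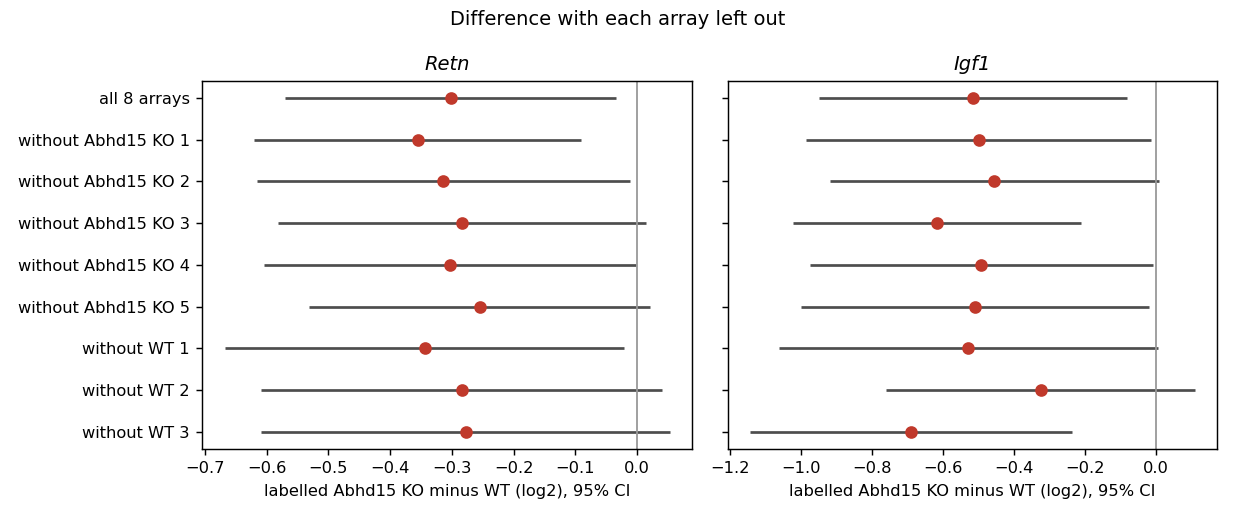
Difference of Retn (left) and Igf1 (right) between Abhd15 KO-labelled arrays and WT (x axis, log2; points, limma estimate; bars, 95% confidence interval, not adjusted for the number of genes) with all 8 arrays and with each array left out. Every estimate is below 0, and the Igf1 estimate moves between −0.69 and −0.325.

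In bulk tissue, fewer cells of a type and less RNA per cell cannot be told apart, so markers of cells a brown fat sample could hold are given beside the genes with the lowest p. White adipocyte markers, set beside Retn, were lower in 7 of 11 members in Abhd15 KO-labelled arrays (median −0.27), and all 11 passed the dim limit in at least 3 arrays. Their mean per array was 4.45 to 4.615 in Abhd15 KO-labelled arrays and 4.59 to 4.70 in WT (exact two-sided permutation p = 0.0893). That mean differed by −0.10 between the labels, less than the median, and 4 of the 11 markers were higher. Over all genes tested 6968 were lower and 7359 higher. At an unadjusted limma p under 0.05 there were 2 of the 11, 1 in each direction, beside 4.22% of all genes tested. Wfdc21, a white fat secreted protein gene, differed by −0.48 (−0.84 to −0.11) and Wt1, a mesothelial and visceral fat factor, by 0.55 (0.03 to 1.07). With the mean of these markers as a covariate the Retn difference was −0.28 (−0.67 to 0.11), the Igf1 difference −0.57 (−1.19 to 0.06), the Nrg4 difference −0.14 (−0.62 to 0.34) and the Lep difference 0.555 (−0.90 to 2.01). The shift of Lep, from a difference of 0.07 without the covariate, was the largest of any member in this fit.

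Macrophage markers, set beside Igf1, were lower in 8 of 10 members (median −0.19), and all 10 passed the dim limit in at least 3 arrays. Their mean per array was 4.76 to 5.64 in Abhd15 KO-labelled arrays and 5.13 to 5.79 in WT (exact two-sided permutation p = 0.446). Mpeg1, a pore-forming protein of macrophages, differed by −0.60 (−1.125 to −0.07). It was the only 1 of the 10 with an unadjusted limma p under 0.05, beside 4.22% of all genes tested. Of 8 fibroblast markers 7 were lower, with a mean of 6.73 to 7.525 in Abhd15 KO-labelled arrays and 6.96 to 7.615 in WT (exact two-sided permutation p = 0.679). The pair lowest in Angptl8, Abhd15 KO replicate 1 and WT replicate 2, held the highest arrays in both the macrophage and the fibroblast mean. A fit with the macrophage mean is therefore not independent of this pair. With the macrophage mean as a covariate the Igf1 difference was −0.46 (−0.93 to 0.01) and the Retn difference −0.28 (−0.57 to 0.02).

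Skeletal muscle and endothelial markers were the most one-sided of these lists. All 10 skeletal muscle markers were lower in Abhd15 KO-labelled arrays (median −0.56), with a mean of 5.02 to 8.03 per array in Abhd15 KO-labelled arrays and 5.92 to 8.68 in WT (exact two-sided permutation p = 0.554). The arrays of both labels overlapped over most of this range. With the muscle mean as a covariate the Retn difference was −0.32 (−0.62 to −0.03), the Igf1 difference −0.46 (−0.915 to −0.008) and the Lep difference −0.16 (−1.125 to 0.80). All 10 endothelial markers were higher in Abhd15 KO-labelled arrays (median 0.165), with a mean of 6.67 to 7.10 per array in Abhd15 KO-labelled arrays and 6.63 to 6.89 in WT (exact two-sided permutation p = 0.25). The part of the endothelial markers in the member differences was not tested. None of the muscle or endothelial markers had an unadjusted p under 0.05, and no marker of the white adipocyte, macrophage, fibroblast, muscle or endothelial lists passed the adjusted threshold with limma.

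**Figure D4:**
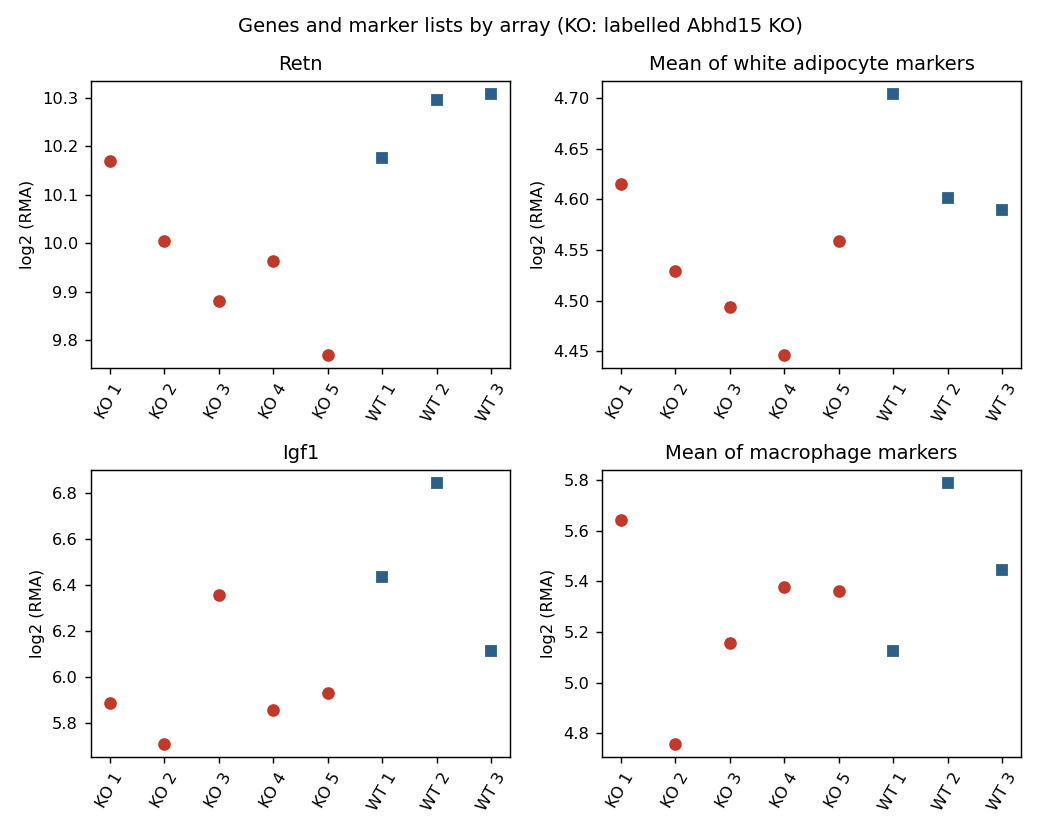
Retn and the mean of 11 white adipocyte markers (top), and Igf1 and the mean of 10 macrophage markers (bottom), in each array (y axes, log2; circles, Abhd15 KO-labelled arrays; squares, WT). Abhd15 KO replicate 1 is the highest array of its label in Retn and in both marker means, and WT replicate 2 is the highest array in Igf1 and in the macrophage mean.

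The pair of arrays lowest in Angptl8 was also at one end in 3 of the 8 tested members. Abhd15 KO replicate 1 and WT replicate 2 were the lowest arrays in Fgf21, at 3.31 and 3.285 against 3.73 to 4.86 in the other 6, and in Vegfa, at 9.88 and 9.715 against 10.07 to 10.27. They were the highest in Nrg4, at 6.84 and 6.91, with a margin of 0.016 log2 over the next array. Among all genes tested this pair was lowest in 7.27% and highest in 9.21%. The pair was noticed in the data and holds a mouse of each label, so these values are a description of the arrays and not a comparison of groups.

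**Figure D5:**
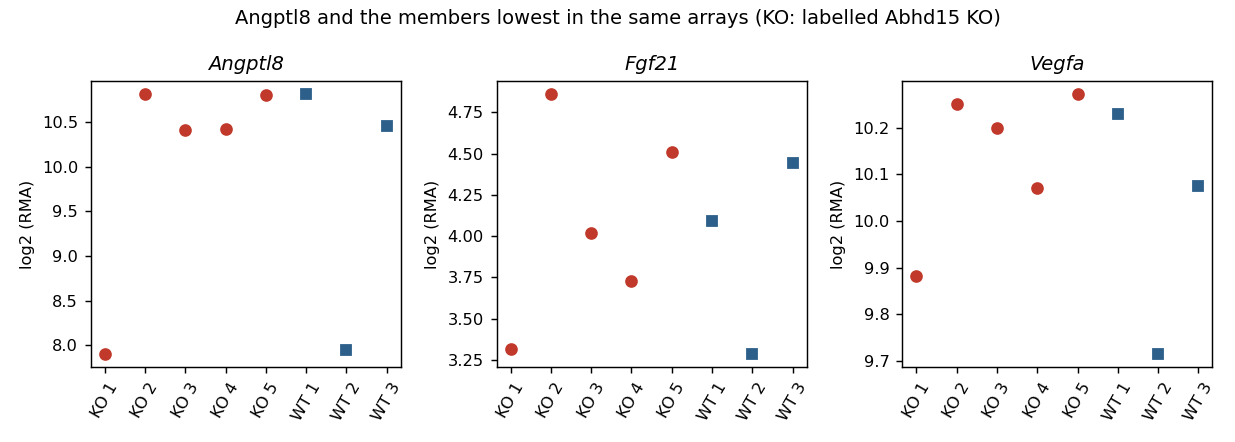
Angptl8, Fgf21 and Vegfa in each array (y axes, log2 RMA value; circles, Abhd15 KO-labelled arrays; squares, WT). Abhd15 KO replicate 1 and WT replicate 2 are the lowest arrays in all 3 panels.

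Genes with the pattern most like each of the 3 most variable members were sought by Pearson's r over the 8 arrays, which share the same samples, and are named without a test. The 5 most like Lep were Adamts9, Sp3os, Gramd1b, Gtf2h3 and Stoml2, with r between 0.959 and 0.98. Adamts9, a secreted metalloprotease, read 6.41, 6.42, 5.55, 5.50 and 6.18 in Abhd15 KO-labelled arrays, against 5.54, 6.21 and 6.21 in WT. The 5 most like Fgf21 were Bcar1, Derl1, Fam117a, Ankrd28 and Dancr (r from 0.952 to 0.977), of which Derl1 is a channel component for export of misfolded proteins from the endoplasmic reticulum. In Bcar1, Derl1, Ankrd28 and Dancr, as in Fgf21, Abhd15 KO replicate 1 and WT replicate 2 were the lowest arrays. How far these correlations rest on that pair was not tested. The 5 most like Igf1 were Xxylt1, Rgn, Inpp4b, Pramel12 and Synpo2l (r from 0.927 to 0.955). Rgn and Inpp4b had values at or near the dim limit. Synpo2l was above it only in Abhd15 KO replicate 3 (2.68), WT replicate 1 (2.8) and WT replicate 2 (2.77), the arrays highest in Igf1. Its other values, from 2.045 to 2.415, lay below the limit.

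The receptors for these factors did not pass the test. Of 24 listed receptors and co-receptors 23 were tested, 10 read higher and 13 lower in Abhd15 KO-labelled arrays (median −0.04), and 0 had an unadjusted p under 0.05. The lowest p belonged to Nrp1, a co-receptor for VEGFA, with 8.84 ± 0.26 log2 in Abhd15 KO-labelled arrays and 8.64 ± 0.095 in WT (difference 0.20, −0.15 to 0.56). Next came Acvr1c, a receptor of the activin and BMP family, with 7.27 ± 0.23 in Abhd15 KO-labelled arrays and 7.46 ± 0.02 in WT (−0.185, −0.51 to 0.14).

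Among carriers and assembly partners 15 of 18 listed genes were tested, 5 higher and 10 lower (median −0.07). One of them, Igfals, the subunit that holds IGF1 in a ternary complex in blood, had an unadjusted p under 0.05, beside 4.22% of all genes tested, a share that 1 of 15 is near. It read 4.05, 2.78, 3.72, 3.73 and 3.65 in Abhd15 KO-labelled arrays, against 4.44, 4.61 and 3.72 in WT, a difference of −0.67 (−1.32 to −0.01). The groups overlapped, and Abhd15 KO replicate 2 was close to the dim limit. Igfbp1, an IGF-binding protein, averaged 2.46 in Abhd15 KO-labelled arrays, below the dim limit, and 2.745 in WT.

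Among relatives of the members from the same protein families 21 of 29 were tested, 9 higher and 12 lower (median −0.015). Nrg2, another neuregulin, read 2.80, 2.85, 3.32, 3.16 and 3.25 in Abhd15 KO-labelled arrays, against 3.63, 3.71 and 3.29 in WT, a difference of −0.47 (−0.84 to −0.10) with an unadjusted limma p of 0.0177, the only 1 of the 21 under 0.05, beside 4.22% of all genes tested. Its values lay not far above the dim limit of 2.67. C1qtnf2, a relative of adiponectin, differed by 0.255 (−0.09 to 0.60). Bmp8a, the nearest relative of Bmp8b, was not bright enough to test.

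Of 32 other secreted factors of fat 25 were tested, 10 higher and 15 lower (median −0.07). Edn1, the gene of endothelin 1, a vasoconstrictor peptide, read 3.50, 3.30, 3.88, 3.57 and 4.16 in Abhd15 KO-labelled arrays, against 4.395, 4.43 and 3.91 in WT, a difference of −0.57 (−1.04 to −0.09) with an unadjusted limma p of 0.0237, the only 1 of the 25 under 0.05, beside the same 4.22%. Only Abhd15 KO replicate 5 was above the lowest WT array. Chrdl1, a BMP antagonist, differed by −0.36 (−0.89 to 0.17).

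Of 18 transcription factors and receptors known to regulate the members, all 18 were tested, 12 higher and 6 lower (median 0.04), and 0 had an unadjusted p under 0.05. Stat5b, which carries the growth hormone signal to the Igf1 gene, read 7.10, 7.06, 6.98, 7.02 and 7.10 in Abhd15 KO-labelled arrays, against 6.92, 6.77 and 6.85 in WT. The groups did not overlap, in the opposite direction to Igf1, and the difference was 0.21 (−0.015 to 0.43) with an exact two-sided permutation p of 0.0179, the lowest the design allows. That is 1 of 18 genes without overlap, beside 2.95% of all genes tested, or 1.65% with Abhd15 KO-labelled arrays higher. Cebpb, a C/EBP factor of adipocytes, differed by 0.37 (−0.05 to 0.79). In all 5 lists described here 0 genes passed an adjusted p of 0.05 with limma.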

How the data were processed

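Brown fat RNA of 8 mice was measured on 1-colour Affymetrix arrays. The authors deposited log2 values made with RMA and oligo per the submitters' processing notes, while the design text per the labels names Expression Console, so the program is not settled. RMA quantile-normalizes arrays, which hides a shift common to most genes. Tool versions and the genome build are not given in the sources used here. Arrays give no read depth, and the 3 and 5 arrays limit the precision.

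Of 41345 probe sets 23521 had 1 gene symbol, 1814 several and 16010 were unnamed here. Symbols were checked by Entrez identifier against RefSeq GRCm38.p6 (23328 matched, 0 updated). The probe set of highest mean stood for a gene. Each measured member had 1 such probe set. The dim limit of 2.67 was the 95th percentile of the means of 1400 olfactory and vomeronasal receptor probe sets, and a gene entered the test if 3 or more arrays exceeded it.

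The labels were contrasted in limma 3.58.1 (R 4.3.3, functions lmFit and eBayes, Benjamini-Hochberg over 14327 genes, threshold 0.05). The fit was also run on simulated data, with added differences larger than that of any member. That run does not show how often differences of the members' size would be called. Single values were also compared by exact two-sided permutation tests. The p-values treat the samples as independent, which cannot be checked, since nothing states litters or days. The members and lists were chosen with earlier results of these data known. Named genes are all members, Abhd15, Angptl8 and the 5 genes most like the 3 most variable members, without predicted genes and small RNAs. Of the receptor, partner, relative, other secreted factor and regulator lists, genes with an unadjusted p under 0.05 are named, filled up to 2 by lowest p. Of the marker lists only Ucp1 and genes with an unadjusted p under 0.05 are named (not all marker lists are printed). The alternatives tried were the replicate block, other dim filters, quantile normalization again, centring, trend with robust fitting, array weights, averaged probe sets, muscle, white adipocyte or macrophage markers as a covariate, and arrays left out. The promoter windows come from RefSeq, and all 10 members matched.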

Additional observations from a re-analysis of the deposited data

How the results depend on the processing

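Under 22 alternatives, 3 of them chosen after seeing the data (the macrophage covariate, a dim limit of 2.88 and the arrays numbered 1 to 3 without a block), 0 genes passed the adjusted threshold with limma, and the members' adjusted p lay between 0.9285 and 1. Of 176 values for the 8 tested members 163 kept their direction and 13 turned. Without each array in turn the differences (log2) ranged from −0.355 to −0.255 for Retn, −0.69 to −0.325 for Igf1, −0.31 to −0.19 for Nrg4, −0.15 to −0.003 for Rbp4, −0.086 to 0.003 for Adipoq, −0.28 to 0.34 for Lep, −0.18 to 0.40 for Fgf21 and −0.018 to 0.24 for Vegfa. Beyond those, Lep turned to −0.16 with the muscle covariate and −0.08 without both arrays lowest in Angptl8, and Fgf21 to −0.021 with the muscle and −0.135 with the macrophage covariate. Outside the ranges with an array left out, Lep was also 0.555 and Nrg4 −0.141 with the white adipocyte covariate. Without both arrays lowest in Angptl8, Adipoq was −0.11 and Igf1 −0.309. In the arrays numbered 1 to 3, with and without the block, Rbp4 was −0.195, Nrg4 −0.15, Retn −0.241 and Adipoq 0.028. The cause of these shifts was not tested. The confidence interval of Retn left out 0 in 14 of 22 alternatives, and that of Igf1 in 14 of 22. Genes at an unadjusted p under 0.05 numbered 604 in the comparison reported, 535 to 748 with an array left out and 1019 of 22180 with no filter on dim genes, where more genes are tested.

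The labels do not say whether replicate numbers pair the samples. Deviations of equally numbered arrays from their group means correlated at −0.241, −0.0912 and 0.0136 over the genes tested. These values show no pairing but cannot exclude a weak one. With the replicate block, over the arrays numbered 1 to 3, 0 genes passed the adjusted threshold and 482 had an unadjusted p under 0.05, against 588 over the same arrays without the block. Adipoq was 0.028 both with and without the block in those arrays, Retn −0.24 (−0.66 to 0.18 with the block) and Igf1 −0.48 (−1.18 to 0.22 with the block), so the turn of Adipoq came with leaving out 2 Abhd15 KO-labelled arrays. Signal near the dim limit restricts what Lep, Fgf21 and Bmp8b can show.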
